A study of Rattus norvegicus albus with 6 samples.

Results

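The plasminogen activators and their serpins were followed here as 4 genes: Plau (urokinase-type activator), Plat (tissue-type activator), Plaur (the urokinase receptor) and Serpine2 (protease nexin-1). The members were found by their exact gene symbol among 14322 named genes on the arrays. All 4 were present, with 1 probe set each, and all 4 passed a filter that removed the 30% of genes with the lowest mean level and kept 10025.

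Plasminogen activators are serine proteases that cut plasminogen into plasmin, a broad protease that dissolves fibrin and degrades matrix. Urokinase works mostly at the cell surface, where its receptor holds it, and tissue-type activator works mostly on fibrin. Serpins stop these proteases by forming covalent complexes that cells take up through receptors of the LDL receptor family. In the liver, hepatic stellate cells are known to make parts of this system when they turn into matrix-producing myofibroblasts.

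The cells were primary rat hepatic stellate cells, grown for 7 days on plastic in low glucose DMEM with 10% serum until fully activated, and this holds for all 6 groups. One group received an adenovirus expressing DKK-1 (Ad.DKK-1), a secreted antagonist of the Wnt co-receptors. Its control received the same dose of a virus that expresses GFP (Ad.GFP). Infection was at a multiplicity of 200 and lasted 24 h in medium with 5% serum, and a further 24 h in serum-free medium came after it. The compounds were ICG-001 at 10 µM, an inhibitor of the contact between β-catenin and CBP, and FJ9 at 200 µM, an inhibitor of the contact between Frizzled and Dishevelled. Cells were exposed to each compound for 24 h in serum-free medium, and each compound has its own vehicle group. A group is 1 array, hybridised with RNA combined from 3 or 4 animals, and a single treatment therefore has neither a replicate nor a test. The labels do not say whether the same rats fed several pools. The virus groups spent longer in culture after the start of treatment and passed through 5% serum, so Ad.GFP is not a further vehicle sample.

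Values are log2 expression per probe set, summarised by the authors with RMA (background correction, normalization to a common distribution and probe summary for Affymetrix arrays), and a difference is the treated array minus its own control. The array medians over 26988 probe sets ran from 7.01 (Ad.DKK-1) to 7.28 (vehicle of ICG-001), with a soft floor at 4. RMA normally ends in a common distribution, so this spread in medians is unusual, and neither labels nor files explain it. The limit used for a difference was 1.5-fold. The stellate cell label was checked against markers: of 9 measured stellate cell and myofibroblast genes, all passed the level filter, with Col1a1 between 12.57 and 12.98 and Pdgfrb between 11.91 and 12.55 on the 6 arrays. All 5 measured hepatocyte markers lay under the level filter by their mean, though Alb reached 7.25 with ICG-001. Of 6 macrophage markers 4 lay under the filter, while Cd68 reached 8.44 and Csf1r 7.33. Of 3 measured endothelial markers only 1 lay under it, and Tek reached 8.19 and Tie1 7.42. The 2 measured cholangiocyte markers passed it, with Epcam at most 7.47 and Krt19 at most 6.66. The markers therefore do not show that other cell types were absent.

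Plau read 5.16 on the Ad.DKK-1 array and 7.32 on Ad.GFP. It read 7.24 with ICG-001 and 7.45 on its vehicle, and 6.15 with FJ9 and 7.48 on its vehicle. The 3 control arrays lay within 0.16 of each other, closer than for 87.4% of genes, and all 3 treated arrays were below all 3 controls. The Ad.DKK-1 value was by far the lowest, the FJ9 value came next, and the ICG-001 value lay only 0.09 under the lowest control.

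Plat, which encodes the tissue-type activator, read 10.58 on Ad.DKK-1 and 11.87 on Ad.GFP. It read 11.44 with ICG-001 and 11.36 on its vehicle, and 11.28 with FJ9 and 11.56 on its vehicle. The low array was Ad.DKK-1 alone, and the treated and control arrays overlapped because the ICG-001 array was above its vehicle. The controls spread over 0.51, more than the 0.39 that is the median over all genes, with Ad.GFP the highest of the 6 arrays.

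Plaur, which anchors urokinase to the membrane, read 9.03 on Ad.DKK-1 and 8.83 on Ad.GFP. It read 9.41 with ICG-001 and 8.97 on its vehicle, and 8.35 with FJ9 and 9.03 on its vehicle. ICG-001 gave the highest array and FJ9 the lowest, with the 3 controls within 0.19 of each other between them. The annotation lists several transcript accessions for this probe set, so transcript forms of the receptor are not told apart.

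Serpine2, an inhibitor of thrombin, urokinase and tissue-type activator that is found on cell surfaces and in matrix, read 10.62 on Ad.DKK-1 and 11.85 on Ad.GFP. It read 11.16 with ICG-001 and 11.63 on its vehicle, and 11.10 with FJ9 and 11.53 on its vehicle. The 3 treated arrays all lay below the 3 controls, with a gap of 0.38 between the highest treated and the lowest control array. Every treated array lay below every control for 2 of the 4 members, Plau and Serpine2, and for 13.2% of all genes.

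**Figure D1:**
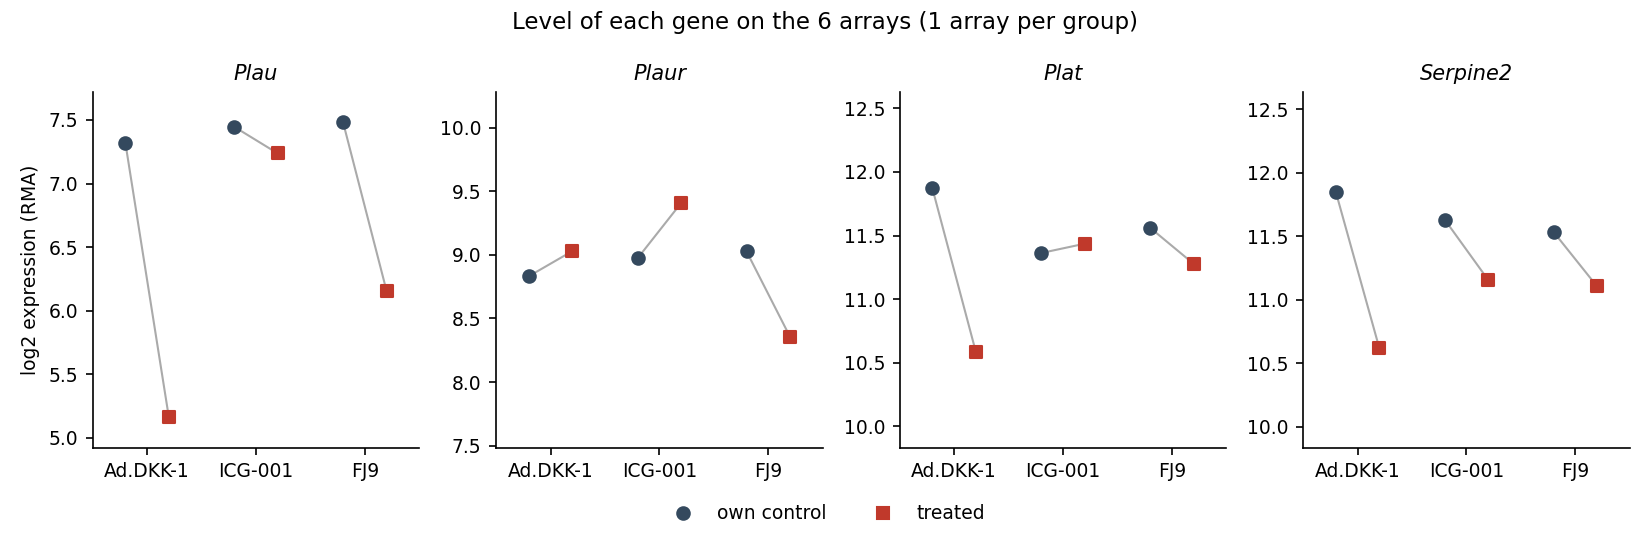
Log2 expression (vertical axis) of Plau, Plaur, Plat and Serpine2 on the 6 arrays, with each treatment's own control as a circle and the treated array as a square, joined by a line; 1 array per group, so no error bar. Plau reads 5.16 with Ad.DKK-1 against 7.32, and 6.15 with FJ9 against 7.48, and Serpine2 is lower on all 3 treated arrays, while each panel spans the same number of log2 units.

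With Ad.DKK-1, both activators and the inhibitor lay below Ad.GFP and the receptor did not. Plau differed by −2.16, which is 4.48-fold lower, Plat by −1.29 (2.44-fold) and Serpine2 by −1.23 (2.35-fold). The size for Plau varied with the array scale: −2.07 with median centring, −2.02 with loess correction and −1.90 with quantile normalization. Plaur differed by 0.20, inside the limit. So 3 of 4 members were at least 1.5-fold lower and none higher, where 20.8% of all genes were lower and 14.5% higher. Of the 10025 genes, 63 (0.63%) had a difference as low as that of Plau or lower, against 403 for Plat and 464 for Serpine2. The median difference over all genes was −0.07.

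Between these arrays the tissue-type activator and the inhibitor differed by nearly the same amount: the difference of Plat minus that of Serpine2 was −0.06. The difference of Plau minus that of Serpine2 was −0.93, and minus that of its receptor −2.36. At 5.16, Plau on Ad.DKK-1 stood under the level filter of 6.39 that applies to means, and 15.8% of probe sets on that array read lower. On the 3 controls, 53.1% to 55.3% of probe sets read lower than Plau.

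Markers of other cells and of stellate cells moved on the same arrays. All 6 macrophage markers were lower on Ad.DKK-1 than on Ad.GFP, 5 of them at least 1.5-fold, and their summed linear level was 377 against 836. The same sum was 407 with ICG-001 against 656, and 504 with FJ9 against 772. Of 9 stellate cell and myofibroblast genes, 8 were lower on Ad.DKK-1, 5 of them at least 1.5-fold, and their sum was 31331 against 45095. With FJ9 all 9 were lower, 4 of them at least 1.5-fold (Lrat by −3.34), with a sum of 30228 against 39520, and with ICG-001 7 were lower, 1 at least 1.5-fold, with a sum of 38252 against 43309. Of 6 endothelial markers 3 were measured, and their sum was 204 on Ad.DKK-1 against 301, with ICG-001 454 against 438, and with FJ9 279.7 against 381. On Ad.DKK-1, 2 of the 3 were at least 1.5-fold lower and Cdh5 was higher by 0.59. With ICG-001, 2 were lower, 1 at least 1.5-fold, and Tek was higher by 0.48. With FJ9 all 3 were lower, 1 at least 1.5-fold. Macrophages are known to express Plau and Plaur too, and endothelial cells Plat. The part of these markers in the differences was not tested, and in bulk RNA fewer cells of a type and less RNA per cell cannot be told apart.

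With FJ9, urokinase and its receptor were the members past the limit. Plau differed by −1.33 (2.51-fold lower) and Plaur by −0.67 (1.59-fold lower), while Plat (−0.28) and Serpine2 (−0.43) lay inside the limit. The count is 2 of 4 lower and none higher, where 14.8% of all genes were lower and 11.6% higher. By size, 356 genes had a difference as low as that of Plau or lower, against 1222 for Plaur. Plau on the FJ9 array read 6.15, also under the level filter of 6.39 that applies to means. On that array 29.3% of probe sets read lower than Plau. Against the vehicle of ICG-001 in place of its own, the FJ9 array differed by −1.29 for Plau and −0.62 for Plaur, still past the limit.

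With ICG-001, no member passed the limit, while 25.7% of all genes did, 13.1% of all genes lower and 12.6% higher. Serpine2 differed by −0.48, Plau by −0.21, Plat by 0.07 and Plaur by 0.44. Plaur passed the limit once the arrays were centred on their medians (0.61), since the medians of these 2 arrays differed by −0.17. The vehicle arrays themselves differed by 0.03 for Plau, 0.05 for Plaur, 0.20 for Plat and −0.10 for Serpine2. None of the 4 passed the limit there, against 7.64% of genes.

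Side by side, Plau read lowest with Ad.DKK-1, then FJ9, and stayed near its vehicle with ICG-001. Lower past the limit with Ad.DKK-1 and FJ9 but not ICG-001 is a pattern that 4.06% of genes share. Plaur, in contrast, was lower with FJ9 and inside the limit, on the higher side, in the other comparisons. The treatments differ in agent, dose, serum and time, and with 1 array each the difference between their effects was not tested.

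**Figure D2:**
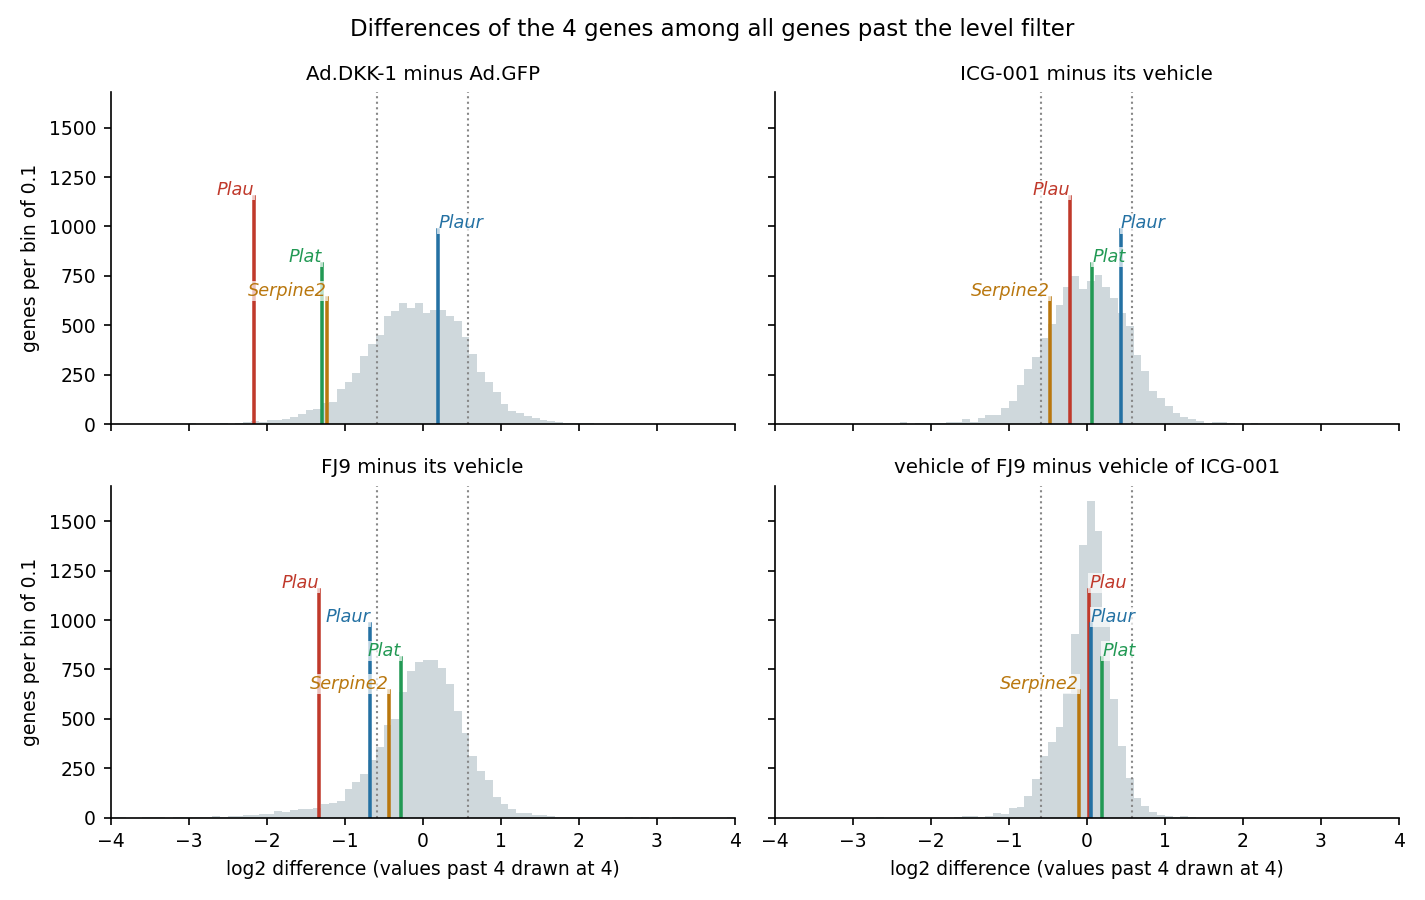
Number of genes per 0.1 bin (vertical axis) against the log2 difference (horizontal axis) for the 10025 genes past the level filter, in each treatment against its own control and between the vehicle arrays, with the 4 members as coloured lines and the 1.5-fold limits dotted. Plau stands at −2.16 in the lower tail with Ad.DKK-1 and at −1.33 with FJ9, and between the vehicles the 4 members lie from −0.10 to 0.20.

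The single test available asks whether treated differed from control on average over the 3 pairs (limma with the pair as a block, Benjamini-Hochberg adjusted over 10025 genes). It says nothing of a treatment alone, because 3 different treatments are no replicates. By this test 8.58% of genes were called, 5.02% lower and 3.56% higher, and 2 of 4 members were called, both lower. Plau was lower by 1.23 on the log2 scale (treated mean 6.18, control mean 7.42, difference −1.23 ± 0.34 SE, limma adjusted p = 0.038) and lower in 3 of 3 pairs. Its ICG-001 difference of −0.21 shrank to −0.04 with median centring, −0.07 with quantile normalization and −0.05 with loess correction. Serpine2 was lower in 3 of 3 pairs too (−0.71 ± 0.20 SE, limma adjusted p = 0.042).

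Both calls depended on the setting. Without the Ad.DKK-1 pair the mean difference of Plau was −0.77 (limma adjusted p = 0.19) and that of Serpine2 −0.45 (0.23), and with median centring the limma adjusted p was 0.090 and 0.12. Serpine2 also missed the threshold without the ICG-001 pair (−0.83, limma adjusted p = 0.076). Over all alternatives the limma adjusted p ran from 0.019 to 0.19 for Plau and from 0.017 to 0.23 for Serpine2. Plat did not pass (−0.50 ± 0.23 SE, limma adjusted p = 0.20, lower in 2 of 3 pairs). Plaur did not pass either (−0.01 ± 0.24 SE, limma adjusted p = 0.98), and its 95% interval of −0.53 to 0.51 leaves room for a mean difference in either direction.

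The members differed in how alike their profiles were over the 6 arrays, as a description with no test. After each gene was centred on its own mean, Plat and Serpine2 lay 0.17 apart (root mean square over the 6 arrays), and every other pair of members lay between 0.51 and 0.83 apart. Plaur was farthest from Plau. This distance also grows with the size of a gene's differences, and Plau ranged over 2.32, Plat over 1.29 and Serpine2 over 1.23. By Pearson correlation over the 6 arrays, Plau was close to Plat (0.87) and Serpine2 (0.88), as were Plat and Serpine2 to each other (0.91). For Plaur the correlation was 0.28 with Plau, −0.03 with Plat and −0.05 with Serpine2.

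Uncharacterised loci and some families, such as olfactory receptors, histones and microRNAs, were left out of the search for nearest profiles. Among the other genes past the filter, the nearest profile to Plat was that of Lrpap1, at a distance of 0.05. Lrpap1 encodes the receptor-associated protein, a chaperone of the LDL receptor family that takes up activator and serpin complexes. Its differences were −1.23 with Ad.DKK-1, 0.19 with ICG-001 and −0.20 with FJ9. Higd2a, C1qtnf5, Tmem80 and Retreg3 followed at 0.08 to 0.10.

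The genes nearest to Serpine2 were Prkra (0.06), Slc4a11, Adam15, Gda and Mocos (up to 0.10). Those nearest to Plaur were Lpar6, a receptor for lysophosphatidic acid (0.08), Hnrnph1, Dse, Ctif and Synj1 (up to 0.10). Plau had no neighbour as close in distance. Hsd11b1, which regenerates active glucocorticoid, was at 0.21, followed by the BMP antagonist Nbl1 (0.23), the activin antagonist Fst (0.26), Ctxn3 (0.26) and Ptprv (0.28). By correlation over the 6 arrays, Hsd11b1 reached 0.97 with Plau, against 0.98 to 0.99 for the nearest gene of each other member. Hsd11b1 differed by −2.02, −0.52 and −1.08 with Ad.DKK-1, ICG-001 and FJ9, and Nbl1 by −2.12, 0.08 and −1.20.

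**Figure D3:**
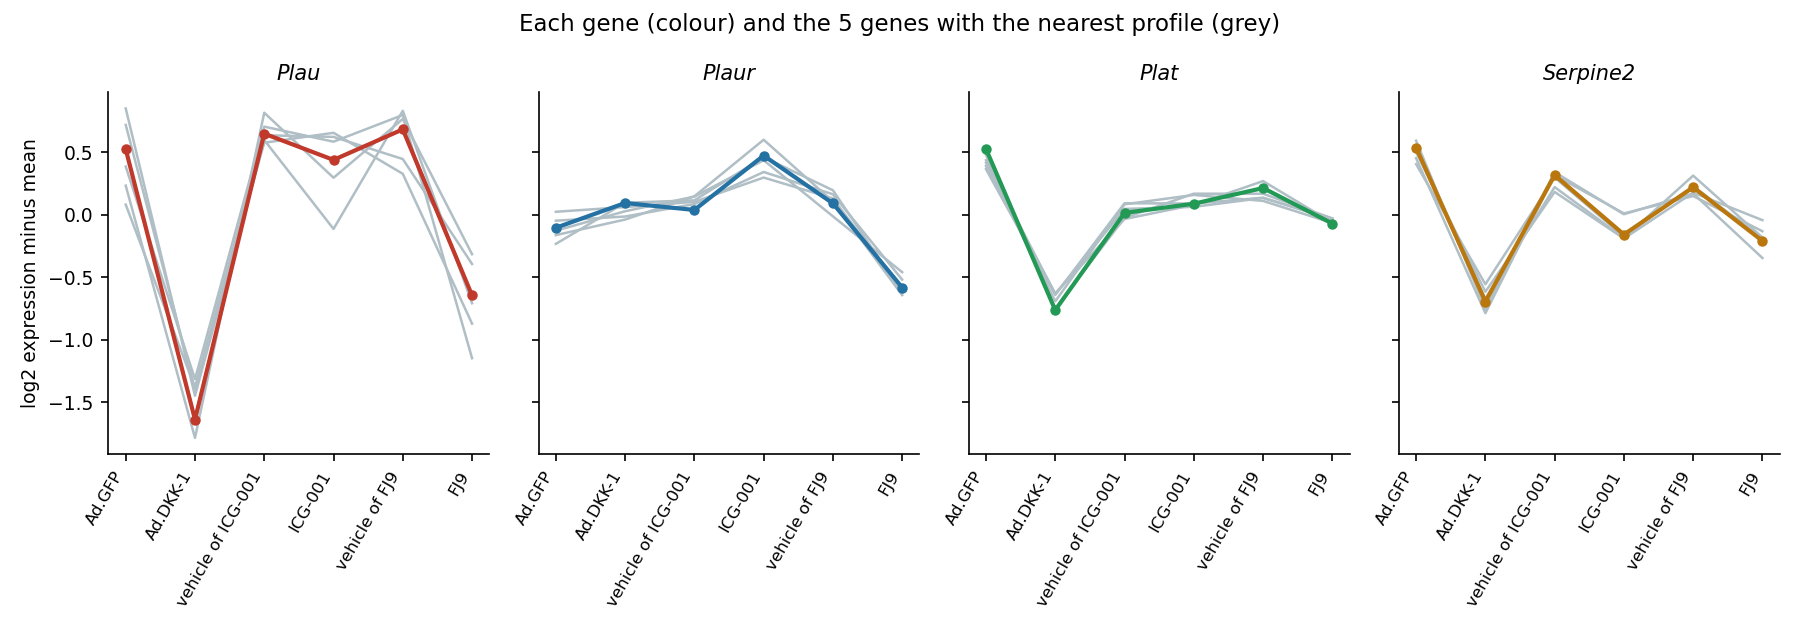
Log2 expression minus the gene's mean over the 6 arrays (vertical axis) on each array, control and treated in turn, for each member in colour and its 5 nearest genes in grey; the lines join arrays only to guide the eye. The grey lines lie close to Plat, where the nearest gene is 0.05 away, and looser around Plau, where it is 0.21 away. Plau also has the wider range over the 6 arrays, 2.32 against 1.29 for Plat. Uncharacterised loci and some gene families were not searched for nearest genes.

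Other inhibitors and serpins were read next, from a list of 13 plasmin inhibitors and related serpins of which 11 had a probe set and 7 passed the filter. The list also holds related serpins such as Serpinf1 and Serpinh1, so its counts are not counts of plasmin inhibitors alone. With Ad.DKK-1, 4 of the 7 were at least 1.5-fold lower and none higher (20.8% and 14.5% of all genes), with a median difference of −0.59 against −0.07 over all genes. With ICG-001, 1 was higher and 1 lower (12.6% and 13.1% of all genes), and with FJ9 none passed the limit (median −0.28). A2m, the broad protease trap α2-macroglobulin, was the only one of the 7 that passed limma's test, which 8.58% of all genes did (−1.12 ± 0.28 SE, limma adjusted p = 0.025), and it was lost in 5 of 8 alternatives, among them without the Ad.DKK-1 pair (highest adjusted p = 0.18).

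A2m read 9.26 on Ad.DKK-1 and 11.53 on Ad.GFP, 10.76 with ICG-001 and 11.54 on its vehicle, and 11.80 with FJ9 and 12.11 on its vehicle. Ad.DKK-1 was the low array, and the FJ9 array was above Ad.GFP and the vehicle of ICG-001. Serpini1, or neuroserpin, which inhibits tissue-type activator, differed by −1.70 with Ad.DKK-1, 0.29 with ICG-001 and −0.27 with FJ9. Serping1, the C1 inhibitor, differed by −1.21, −0.41 and −0.19.

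Serpinb2, which encodes the plasminogen activator inhibitor type 2 and acts on urokinase, went the other way on 1 array. The Ad.DKK-1 array gave 7.42 against 4.70 for Ad.GFP, which is a difference of 2.73. It read 4.78 with ICG-001 and 4.64 on its vehicle, and 5.22 with FJ9 and 5.10 on its vehicle. So 1 array was high and the other 5 lay low, in the range of the genes the level filter removes. The mean over the 6 arrays was under that filter, and the gene entered no limma test. Serpinf2, the α2-antiplasmin gene, was also under the filter and differed by 0.83, 0.34 and 0.78 with Ad.DKK-1, ICG-001 and FJ9. Serpinb8, under the filter too, differed by −1.38 with ICG-001, and Serpinf1, the antiangiogenic serpin PEDF, by 0.94.

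Plasminogen itself is made mainly by hepatocytes, and Plg read between 6.08 and 6.98 here, near the level filter. Of 5 genes past the filter in the list of plasminogen and its surface receptors, each treatment had 1 at least 1.5-fold lower and none higher. That is near the share of all genes that were lower, at 20.8% with Ad.DKK-1, 13.1% with ICG-001 and 14.8% with FJ9. Plgrkt, a plasminogen receptor, differed by −1.02 with Ad.DKK-1, −0.27 with ICG-001 and −0.46 with FJ9. Anxa2, the annexin that with S100a10 binds plasminogen and tissue-type activator, differed by −0.46, −0.18 and −0.99, and S100a10 by −0.55, 0.33 and −0.52. No gene of this list passed limma's test. The lowest limma adjusted p was that of Anxa2, at 0.10. Under the level filter, the integrin subunit Itgam of myeloid cells differed by −1.28 with Ad.DKK-1 and −1.27 with FJ9, and Cpb2, which protects fibrin from plasmin, by 0.71 with FJ9. Itgam read 4.00 on the Ad.DKK-1 array, at the soft floor, so the size of that difference is uncertain. Plg itself differed by −0.75 with ICG-001. Against the other vehicle, Plg with ICG-001 was at −0.30 and Cpb2 with FJ9 at 0.26, both inside the limit.

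Partners of the urokinase receptor, and receptors that clear activator and serpin complexes, formed the longest list, with 15 of 19 genes measured. With Ad.DKK-1, 8 of 14 genes past the filter were at least 1.5-fold lower and none higher, where 20.8% and 14.5% of all genes were (median −0.66, against −0.07 over all genes). With FJ9, 6 of 14 were lower and none higher, where 14.8% and 11.6% were (median −0.38, against 0.01). With ICG-001, 3 were lower and 4 higher, where 13.1% and 12.6% were (median 0.18, against 0.01).

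In this list 3 of 14 genes fell in limma's test and none rose, where 5.02% of all genes fell and 3.56% rose. Itgb5, the β5 integrin subunit that pairs with αv to bind vitronectin, read 10.29 on Ad.DKK-1 and 11.75 on Ad.GFP, 10.12 with ICG-001 and 11.44 on its vehicle, and 9.56 with FJ9 and 11.45 on its vehicle. All 3 treated arrays were below all 3 controls, and the mean fell by 1.55 on the log2 scale (SE 0.19, limma adjusted p = 2.5e-04).

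Mrc2 encodes the urokinase receptor-associated protein, an endocytic collagen receptor. It read 7.79 on Ad.DKK-1 and 9.27 on Ad.GFP, 7.72 with ICG-001 and 9.05 on its vehicle, and 7.56 with FJ9 and 9.07 on its vehicle. The 3 differences (−1.47, −1.33 and −1.51) were close to each other, and the vehicles differed by 0.02. The mean fell by 1.44 (SE 0.22, limma adjusted p = 0.0013).

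Sdc4, a heparan sulphate proteoglycan of the cell surface, read 9.01 on Ad.DKK-1 and 10.11 on Ad.GFP, 9.05 with ICG-001 and 9.94 on its vehicle, and 9.24 with FJ9 and 10.54 on its vehicle. Its mean fell by 1.10 (SE 0.20, limma adjusted p = 0.0036). The vehicles differed by 0.60 for Sdc4. Against the other vehicle its difference was −1.49 with ICG-001 and −0.70 with FJ9, still past the limit. Itgb5, Mrc2 and Sdc4 passed in all 8 alternatives, with a highest adjusted p of 0.025, in contrast to Plau and Serpine2. None of these alternatives exchanged the vehicles. Of the clearance receptors proper, Lrp1 differed by −0.66, 0.12 and −0.42 with Ad.DKK-1, ICG-001 and FJ9, Lrp2 by −1.18, 1.62 and 0.24, and Vldlr by 0.35, 1.07 and 0.53. None of these 3 passed limma's test. Cav1, the caveolar scaffold, differed by −2.19 with FJ9 and by 1.07 with ICG-001.

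**Figure D4:**
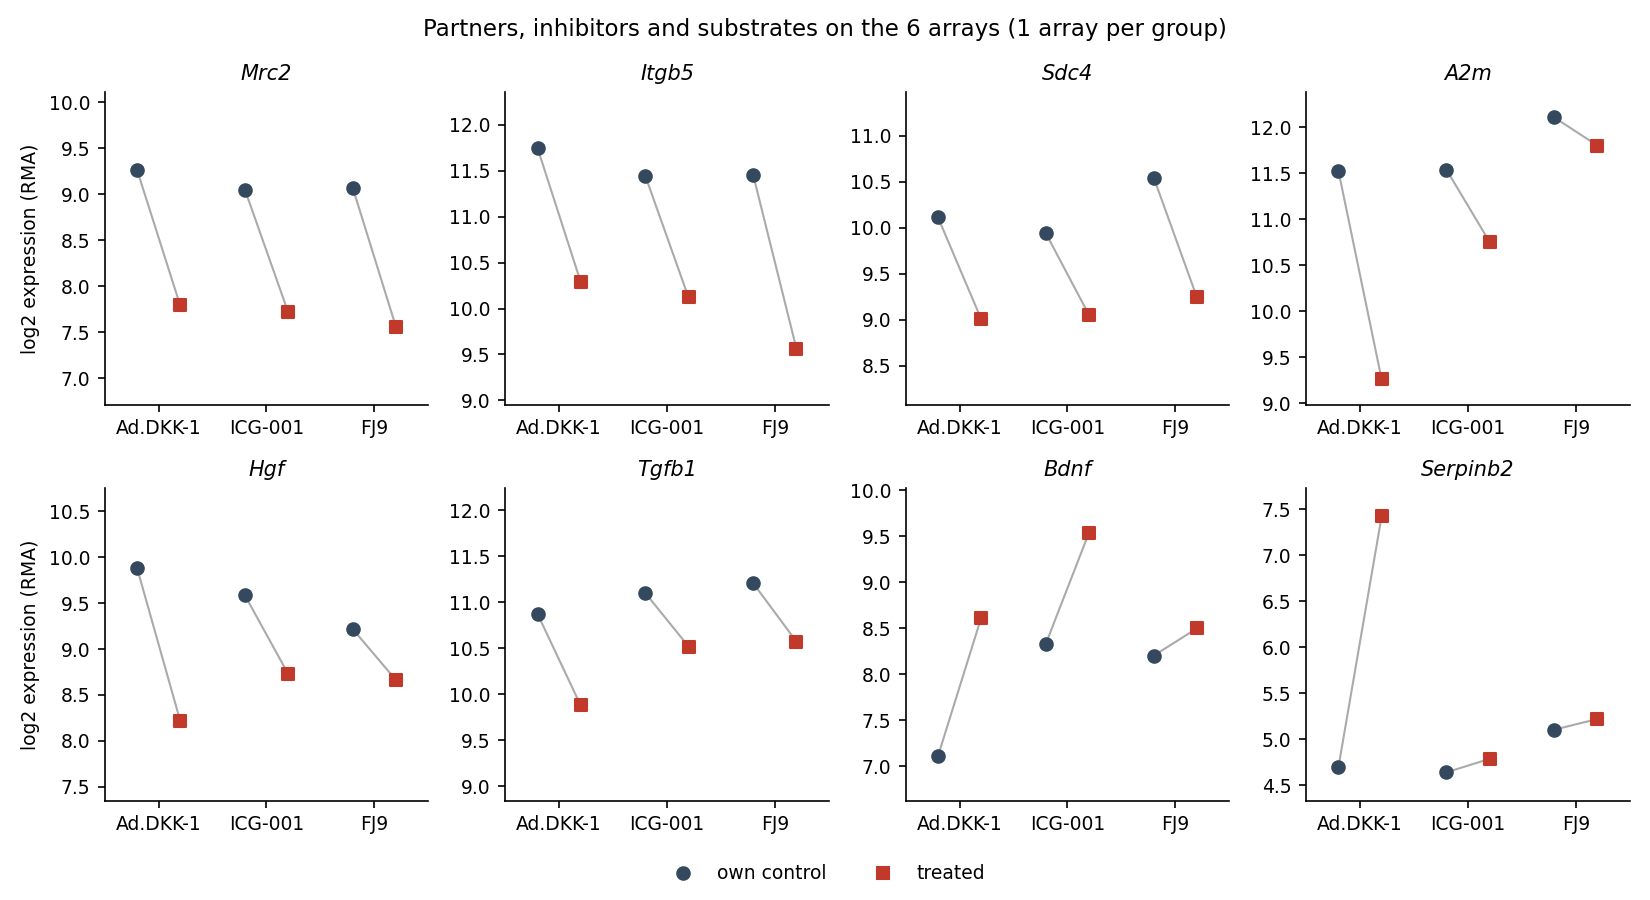
Log2 expression (vertical axis) of 8 partner, inhibitor and substrate genes on the 6 arrays, with each treatment's own control as a circle and the treated array as a square, 1 array per group. Mrc2, Itgb5 and Sdc4 are lower on every treated array than on its control, with differences from −1.88 to −0.89, whereas Serpinb2 reads 7.42 on the Ad.DKK-1 array and at most 5.22 on the others.

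Among substrates that urokinase or plasmin can activate or release, Hgf and Tgfb1 fell and Bdnf rose in limma's test, 3 of 9 genes past the filter, where 8.58% of all genes were called. Hgf, a growth factor whose precursor urokinase can cleave, read 8.22 on Ad.DKK-1 and 9.88 on Ad.GFP, 8.73 with ICG-001 and 9.58 on its vehicle, and 8.66 with FJ9 and 9.22 on its vehicle. Its treated arrays were all below the controls (−1.02 ± 0.24 SE, limma adjusted p = 0.017). The call was lost without the Ad.DKK-1 pair and with median centring, with a highest adjusted p of 0.11.

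Tgfb1, whose latent protein plasmin can release, differed by −0.99 with Ad.DKK-1, −0.58 with ICG-001 and −0.63 with FJ9 (−0.74 ± 0.19 SE, limma adjusted p = 0.025). The call was lost in 5 of 8 alternatives, with a highest adjusted p of 0.098. Bdnf, a neurotrophin whose precursor plasmin can cleave, read 8.61 on Ad.DKK-1 and 7.11 on Ad.GFP, and differed by 1.21 with ICG-001 and 0.30 with FJ9 (1.00 ± 0.26 SE, limma adjusted p = 0.028), and was lost in 4 of 8 (highest 0.16). With Ad.DKK-1, 6 of the 9 were at least 1.5-fold lower and 1 higher (20.8% and 14.5% of all genes). With ICG-001, 1 was lower and 1 higher (13.1% and 12.6%), and with FJ9 3 were lower and 1 higher (14.8% and 11.6%). The membrane protease Mmp14 differed by −0.96 with FJ9 and Mmp3 by 0.91, and Mmp13, under the level filter, by 1.18. Also under the filter, Mmp9 differed by −0.89 with Ad.DKK-1 and Fgb by −1.08 with ICG-001, with vehicle differences of −0.96 and −0.91. Mmp9 read 4.00 on the Ad.DKK-1 array, at the soft floor.

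Serpine2 also inhibits thrombin, so thrombin, tissue factor and protease receptors were read as a list. None of 10 genes past the filter passed limma's test. With Ad.DKK-1, 2 were at least 1.5-fold lower and none higher, near the 20.8% of all genes that were lower. With ICG-001, 5 were lower and 1 higher (13.1% and 12.6% of all genes), and with FJ9 2 were lower and 1 higher (14.8% and 11.6%). The ICG-001 count depended on the vehicle. Among its lower genes, F2 (−0.60) and Hpn (−0.79) lay inside the limit against the other vehicle, at −0.44 and −0.28, and so did F12. F3 (−1.20) and Tfpi2 stayed past it there. Thbd, or thrombomodulin, read 7.47 with FJ9 and 9.72 on its vehicle, a difference of −2.25, and differed by −0.99 with Ad.DKK-1 and 0.70 with ICG-001. Against the other vehicle the ICG-001 difference was 0.17, inside the limit, and the FJ9 difference −1.73. F3, the tissue factor gene, differed by 0.07, −1.02 and −0.86 with Ad.DKK-1, ICG-001 and FJ9. Tfpi2 differed by −1.04 with ICG-001 and 0.71 with FJ9, and by 1.23 between the vehicles. Against the other vehicle these were −2.27 and 1.94. The thrombin receptor F2r differed by −0.41, −0.22 and −0.57. Of the membrane proteases, Hpn differed by −1.85 with Ad.DKK-1, and St14, under the filter, by −1.45 with Ad.DKK-1 and −1.04 with ICG-001. F12, the gene of coagulation factor XII, differed by −0.95 with ICG-001 and by −0.97 between the vehicles, and by 0.02 with ICG-001 against the other vehicle.

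AP-1 and Ets factors are the textbook regulators of the urokinase gene. In limma's test 3 of 10 genes past the filter rose and none fell, where 3.56% of all genes rose and 5.02% fell. The 3 were Ets2 (1.60 ± 0.25 SE, limma adjusted p = 0.0014), Fosl1 (1.35 ± 0.29 SE, 0.0096) and Etv5 (0.95 ± 0.26 SE, 0.037). Ets2 differed by 1.60 with Ad.DKK-1, 0.88 with ICG-001 and 2.32 with FJ9, and passed in all 8 alternatives. Fosl1 lost its call without the Ad.DKK-1 pair (adjusted p = 0.053) and Etv5 lost its own in 3 of 8 (highest 0.22). Etv1 and Elk3 differed by −1.40 and −1.36 with FJ9. Etv4, under the filter, differed by 1.58 with Ad.DKK-1 and 1.16 with ICG-001, and by 1.21 between the vehicles. Jun, by contrast, differed by 0.33, 0.99 and −0.27, and Fos by −0.76, −0.21 and −0.94.

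**Figure D5:**
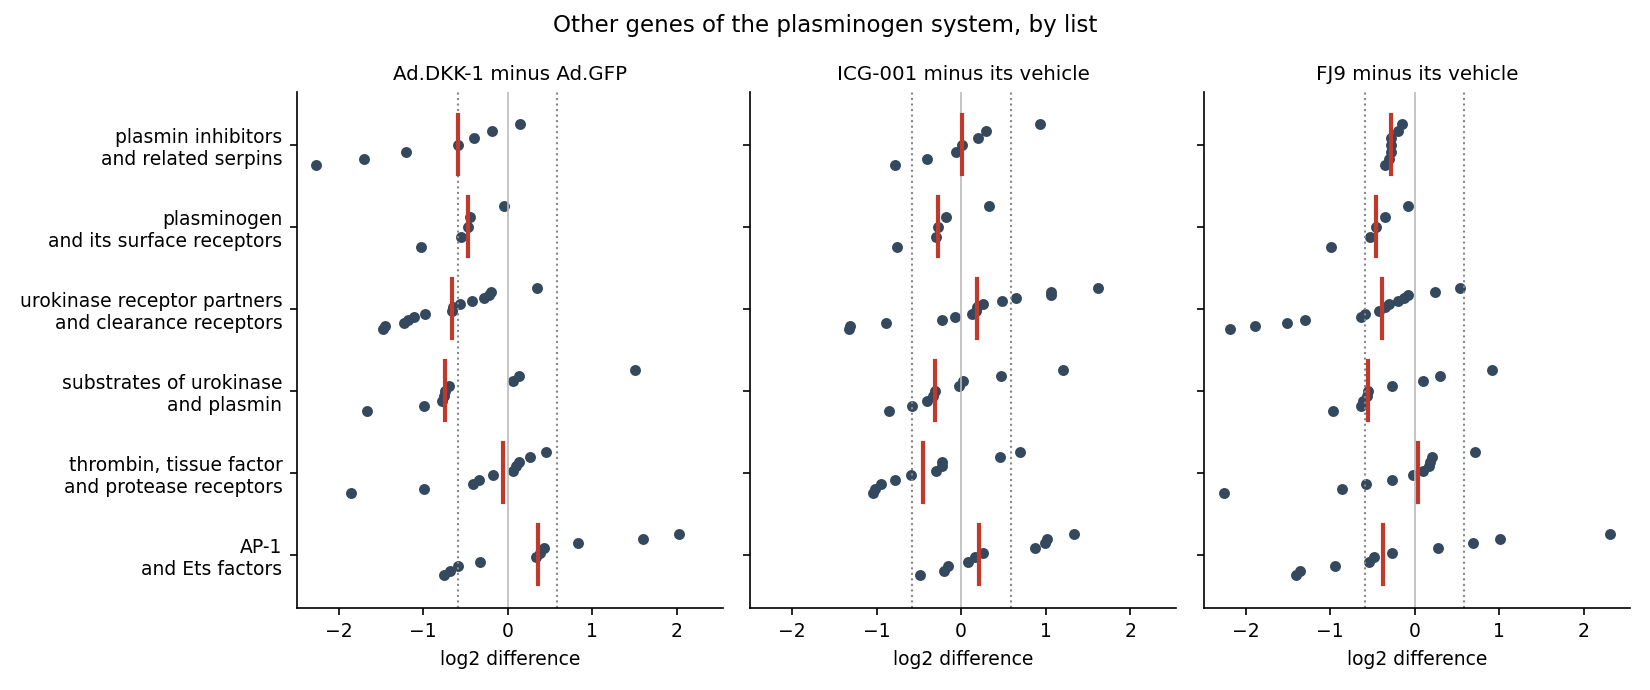
Log2 difference (horizontal axis) of each gene past the level filter in 6 lists around the plasminogen system (rows) for the 3 treatments, with 1 point per gene, the list median as a red bar and the 1.5-fold limits dotted. The list of urokinase receptor partners and clearance receptors has a median of −0.66 with Ad.DKK-1, 0.18 with ICG-001 and −0.38 with FJ9.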

How the data were processed

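The authors deposited log2 values for each probe set on 6 arrays, and the submitters' processing notes name RMA and Affymetrix Expression Console. Software versions and the genome build were not stated in the labels or files. No further normalization entered the main values, and the number of arrays limits the precision. The platform annotation named 15092 of 26988 probe sets with 1 symbol (323 had several, 11573 are unnamed here), and 15062 matched the RefSeq table of GRCr8 by Entrez identifier, used for names only. The probe set with the highest mean stood for a gene.

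Differences are treated minus own control. The fit was limma 3.58.1 in R 4.3.3 (lmFit, eBayes with trend, two-sided, pair as a block, 2 residual degrees of freedom, adjusted p under 0.05), tested on simulated data. Alternatives were median centring, quantile normalization, loess correction, the other vehicle or the mean of both, no level filter, a 2-fold limit, no pair block, no trend and each pair left out. No member has several probe sets, so that alternative gave no value.

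The members and lists were chosen with earlier results of these data known. The 4 members are always named, with up to 4 genes of a list per treatment that passed 1.5-fold by size and 5 nearest profiles per member. List genes given outside that rule (Lrp1, S100a10, Plg, F2, F2r, Hpn, Jun and Fos in some treatments) were chosen after their values were seen. No detection calls were used, and no sequences are shown.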

Additional observations from a re-analysis of the deposited data

How the results depend on the processing

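The member differences for single treatments kept their side of the 1.5-fold limit in 51 of 52 comparisons with an alternative, and the exception was Plaur with ICG-001, at 0.61 with median centring. Their direction held too, except for Plat with ICG-001 (0.07), which was −0.13 against the other vehicle and −0.03 against the mean of both. The calls over the 3 pairs were less stable. Plau missed the threshold with no pair block (−1.23, limma adjusted p = 0.12), median centring (−1.14, 0.090) and quantile normalization (−1.13, 0.069), and without the Ad.DKK-1 pair (−0.77, 0.19). Serpine2 missed it with no pair block (−0.71, 0.062), without trend (−0.71, 0.11), with median centring (−0.62, 0.12) and with quantile normalization (−0.69, 0.063), and also without the ICG-001 pair (−0.83, 0.076) and without the Ad.DKK-1 pair (−0.45, 0.23), 6 of 8 alternatives in all. With a pair left out, Plau ranged from −1.75 to −0.77, Serpine2 from −0.85 to −0.45, Plat from −0.79 to −0.11 and Plaur from −0.24 to 0.32. Plaur, not called, changed sign with median centring (0.075). The count of genes past limma's threshold was 860, against 422 with no pair block, 538 with median centring and 570 to 722 with a pair left out. With a 2-fold limit the counts were 1193 (Ad.DKK-1), 619 (ICG-001), 846 (FJ9) and 114 (between vehicles), against 3531, 2581, 2644 and 766 at 1.5-fold. Without the level filter they were 5314 for Ad.DKK-1 and 1533 between the vehicles. Median centring also changed the share of higher genes among those past the 1.5-fold limit. This share went from 41.0% to 52.7% with Ad.DKK-1, from 49.1% to 74.6% with ICG-001 and from 32.0% to 68.5% between the vehicles. The cause of these shifts was not tested.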
